A study of Mus musculus with 23 samples.

Results

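The set comprised 10 autophagy genes, taken by name from a list with no threshold on their values, of 22350 genes counted in the mRNA libraries. Sqstm1 encodes a cargo receptor. Map1lc3a, Map1lc3b, Gabarapl1 and Gabarapl2 encode members of the ATG8 family. Ulk1 and Becn1 belong to separate kinase complexes that start autophagosome formation. Wipi1 binds the lipid that the Becn1 complex produces, and Atg5 and Atg16l1 belong to the conjugation machinery. All 10 genes had counts in the mRNA and the ribosome footprint libraries and passed the count filter in each of the 6 comparisons.

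Autophagy encloses cytoplasm in a double membrane, the autophagosome, and delivers it to lysosomes. mTOR complex 1, of which Raptor (the product of Rptor) is the substrate-binding subunit, phosphorylates ULK1 and restrains the pathway when nutrients are plentiful. In the intestine, ATG16L1 and ATG5 are known for their part in Paneth cell granules and in the clearance of microbes. The abundance of an mRNA or of its footprints does not measure autophagic flux.

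The data were RNA-seq and Ribo-seq libraries of C57BL/6 mouse small intestinal organoids and Ribo-seq libraries of the small intestine of young adult mice, 23 libraries in all. Standard organoids (WT) and stem cell enriched organoids (SCe) were VillinCre.ERT2.RPL22.HA, in which Cre is driven by the intestinal epithelial Villin promoter and the ribosomal protein RPL22 carries an HA tag. SCe cultures received 10 µM CHIR 99021, a GSK3 inhibitor, and 1.5 mM valproic acid, a histone deacetylase inhibitor. For RNA-seq the Rptor organoids were VillinCre.ERT2.Rptor.fl/fl, without the tag. For Ribo-seq they carried the tag as well (VillinCre.ERT2.Rptor.fl/fl.RPL22.HA). The mice were Lgr5Cre.ERT2.RPL22.HA (WT) or Lgr5Cre.ERT2.Rptor.fl/fl.RPL22.HA (Rptor), with Cre driven by the stem cell gene Lgr5, and their tagged ribosomes were pulled down with anti-HA matrix. The labels give all groups other than SCe as untreated, whereas the study's methods describe tamoxifen for each Cre genotype. RNA-seq held 2 WT and 2 Rptor lines, each sequenced as 2 technical libraries that were summed here, and 3 SCe libraries. Each Ribo-seq group held 3 libraries. No standard WT organoids were profiled by Ribo-seq among the libraries analysed here, so Rptor footprints were set against SCe footprints, and there the genotype and the 2 drugs cannot be told apart. In Rptor against SCe mRNA the genotype, the 2 drugs and the absent tag cannot be told apart, and footprints per mRNA set tagged Rptor footprints over untagged Rptor mRNA. In the RNA-seq of Rptor against WT organoids the deletion and the absence of the tag cannot be told apart.

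Assigned counts per library were 23802944 to 67598878 for RNA-seq, 5992941 to 8257457 for Rptor organoid footprints, 1106178 to 4242425 for SCe footprints, 772077 to 5337092 for WT mice and 3085617 to 8238388 for Rptor mice. Rptor mRNA was 14.8 and 15.5 CPM (counts scaled to a common library size) in the 2 Rptor lines against 51.5 and 47.9 in the WT lines (log2 change -1.71, SE 0.0835, adjusted p = 0.00516, edgeR). Rptor footprints did not pass the test in organoids (log2 change -0.53, adjusted p = 0.318) or in mice (-0.28, adjusted p = 0.150), so those groups are named by their labels. Against SCe, Rptor mRNA changed by -1.89, and Rptor footprints per mRNA by 1.43 (adjusted p = 0.0777). The Paneth gene Lyz1 was 103 and 206 CPM in Rptor mRNA and 212 to 1642 in SCe mRNA. In footprints Lyz1 was 1640 to 1963 CPM in Rptor and 1107 to 1451 in SCe. Whether the Rptor cultures of the 2 assays were alike was not tested, which limits all footprints per mRNA below. The SCe library of replicate 1 stood apart in the RNA-seq: its log CPM correlated at 0.943 and 0.944 with the other SCe libraries, which correlated at 0.990, and its summed enterocyte markers were 230 CPM against 5636 and 6503. Goblet cell markers summed to 1736 to 1875 CPM in WT lines, 2972 to 4134 in Rptor lines and 247 to 479 in SCe libraries. Stem cell markers summed to 4827 to 6578, 1939 to 3287 and 2381 to 3082 CPM and Paneth cell markers to 4047 to 5169, 687 to 1459 and 875 to 3463 CPM, in the same order. Lgr5, in the stem cell list, was highest in SCe. It was 215 and 197 CPM in WT lines, 44.4 and 73.9 in Rptor lines and 337, 222 and 219 in SCe libraries. In footprints the sum of every epithelial marker list was lower in each SCe than in each Rptor organoid library. The lists were enterocyte (810 to 2777 against 6545 to 7131 CPM), enteroendocrine (33.0 to 59.1 against 485 to 577), goblet (1182 to 1569 against 3191 to 5189), Paneth (3633 to 6168 against 6935 to 10065), tuft (6.23 to 11.9 against 18.9 to 37.3) and stem cell markers (2678 to 4630 against 6216 to 6375). The mouse pulldowns held immune markers (7 of 7 detected) at 7300.4 to 8916 CPM and smooth muscle and stromal markers (6 of 6) at 1670 to 1997 CPM and pancreatic acinar markers (5 of 5) at 2143 to 5058 CPM, while stem cell markers summed to 454 to 741 CPM. In organoids the immune and stromal sums were at most 6.63 and 9.75 CPM. The part of these cell type differences in the values below was not tested, and in such bulk samples fewer cells of a type and less RNA per cell cannot be told apart.

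The sequences before the RefSeq start sites are shown for the 3 genes with an entry that passed the test in an RNA-seq comparison of organoids. Of the 10 genes, 7 had an entry in the RefSeq promoter table (GRCm38.p6). Capitals mark CACGTG, the core letters bound by bHLH-leucine zipper factors such as TFEB. Sequences are 5′ to 3′ on the gene's strand, end before the RefSeq start site and hold no GENCODE exon of the gene itself. The Gabarapl1 stretch lies within an exon of 1700101I11Rik, a gene annotated on the opposite strand. Wipi1 lies at chr11:109611433-109611639 (minus strand), before the first exon of Wipi1-201 and inside the first intron of Wipi1-204. Gabarapl1 lies at chr6:129532942-129533159 (plus strand) and Atg5 at chr10:44268089-44268338 (plus strand), the former directly before the annotated gene and the latter ending before the GENCODE start at 44268358.
Wipi1: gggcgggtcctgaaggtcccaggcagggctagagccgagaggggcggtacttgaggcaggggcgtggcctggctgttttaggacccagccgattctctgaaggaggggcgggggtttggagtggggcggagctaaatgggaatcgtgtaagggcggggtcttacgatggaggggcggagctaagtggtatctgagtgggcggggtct
Gabarapl1: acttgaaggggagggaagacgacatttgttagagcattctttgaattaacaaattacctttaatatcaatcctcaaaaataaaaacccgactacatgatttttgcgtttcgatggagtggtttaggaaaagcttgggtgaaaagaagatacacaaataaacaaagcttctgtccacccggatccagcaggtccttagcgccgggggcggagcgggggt
Atg5: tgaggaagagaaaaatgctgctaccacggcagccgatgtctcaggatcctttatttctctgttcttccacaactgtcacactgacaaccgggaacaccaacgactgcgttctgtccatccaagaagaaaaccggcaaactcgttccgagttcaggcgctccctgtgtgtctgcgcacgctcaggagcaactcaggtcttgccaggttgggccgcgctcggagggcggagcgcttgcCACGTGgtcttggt
CACGTG was searched on both strands of the 250 bases before each start, as was GTAAACA, the letters bound by forkhead factors such as FOXO3. The third motif was TGATGNAA, found in sites of ATF4 with C/EBP factors. Atg5 held CACGTG, beginning 14 bases before its start, and the other 6 genes with an entry held none of the 3 motifs. Of all 32851 promoters, 6.02% held CACGTG, 3.17% held the forkhead letters and 3.45% held the ATF4 letters. A match is a description of letters and not of binding.

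The genes differed in level by more than 10-fold. Levels between genes are given as counts per kilobase of deposited length, scaled to the same total in each library. On this scale the mRNA level was highest for Becn1 (mean 125 in WT lines), Sqstm1 (109) and Map1lc3b (106). Gabarapl2 followed at 60.6, Atg5 at 37.9 and Gabarapl1 at 31.2. The ranges of Sqstm1 and Map1lc3b overlapped, as did those of Atg16l1 (20.0), Ulk1 (19.9) and Wipi1 (19.3). Map1lc3a was lowest at 9.42. Gabarap, the ATG8 gene outside the set, had a higher mRNA level than any of the 10 genes (263). In SCe libraries Wipi1 mRNA averaged 35.6 and ranked sixth of the 10 genes, between Gabarapl1 (52.8) and Atg5 (30.7), with a range of 27.5 to 51.2 that overlapped both.

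Footprint levels had another order. The ATG8 genes Map1lc3b and Gabarapl2 were highest in organoid footprints. On the same scale, over coding sequence, their means were 313 and 186 in SCe and 270 and 180 in Rptor organoids. Footprints and mRNA were each scaled to their own total, so the ratios below compare shares of each assay. The Rptor ratios also set footprints of tagged cultures over mRNA of untagged cultures. The ratio of footprint to mRNA level was 3.01 for Map1lc3b, 2.92 for Gabarapl2, 1.95 for Map1lc3a and 1.64 for Gabarapl1 in SCe organoids. Sqstm1 had a ratio of 1.07 and Atg5 of 0.878. For the remaining genes it was 0.548 for Atg16l1, 0.521 for Wipi1, 0.316 for Ulk1 and 0.116 for Becn1. In Rptor organoids the ATG8 genes again had the highest ratios, from 1.34 to 2.57 and 2.65, and Becn1 the lowest at 0.186. These ratios depend on the length used: with the authors' TPM the SCe ratio was 4.02 for Map1lc3b, 1.38 for Gabarapl2 and 0.0255 for Becn1. By TPM Map1lc3a had ratios of 0.735 in SCe and 0.856 in Rptor organoids. In Rptor organoids Ulk1 (0.0543) was then lower than Becn1 (0.0671). TPM divides by the deposited effective length, which for footprints was 151 of 400 bases for Gabarapl2-201, 175 of 424 and 19.6 of 247 for Map1lc3b-201 and Map1lc3b-203, and 1144 of 1393 for Becn1-205.

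**Figure D1:**
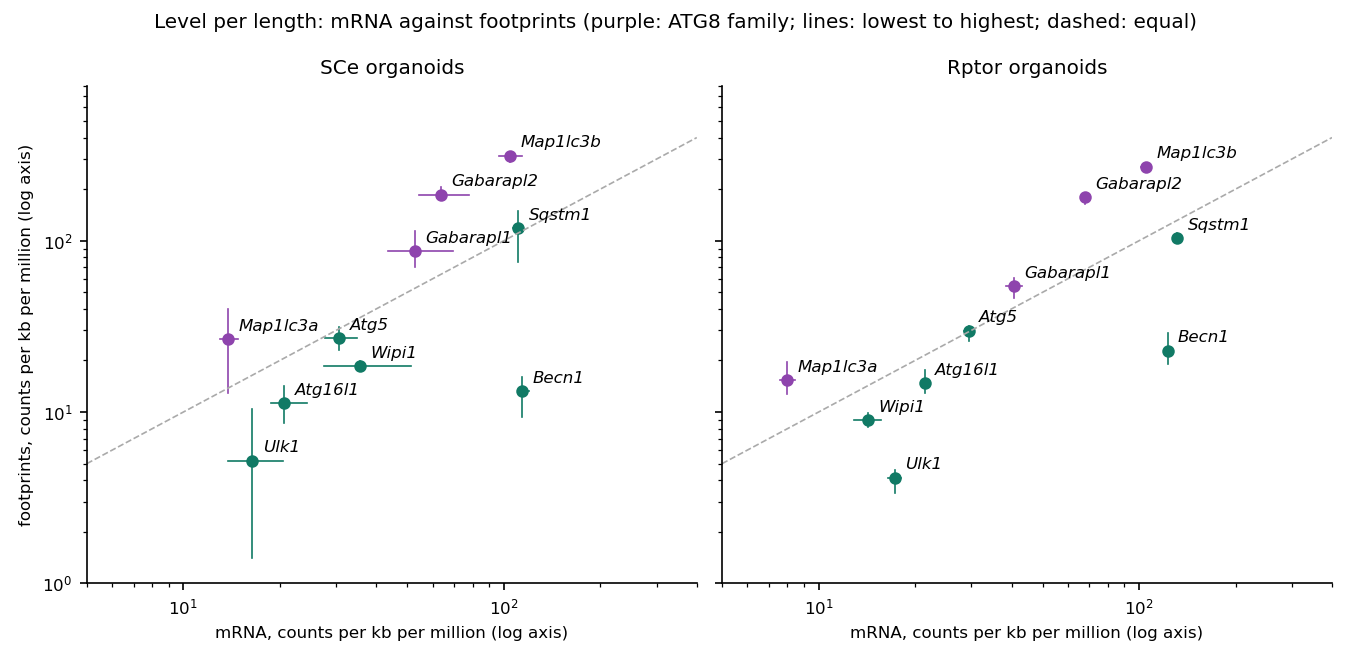
Levels of the 10 genes in SCe (left) and Rptor (right) organoids, with mRNA on the x axis and footprints on the y axis. Both are counts per kilobase scaled to the same total in each library, on log axes. Points are group means, lines run from the lowest to the highest library or line, and the dashed line marks equal values on this scale. The 4 ATG8 genes (purple) lie above the dashed line and Becn1 lies furthest below it.

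Becn1 encodes Beclin 1, the regulatory subunit of the class III phosphatidylinositol 3-kinase. Its mRNA and footprint counts were assigned to different transcripts, against different reference sequences. Of its mRNA counts, 75.7% in WT lines, 76.3% in Rptor lines and 75.1% in SCe libraries were assigned to Becn1-201, which the annotation calls a nonsense-mediated decay transcript. Becn1-205, the protein-coding transcript of 4365 bases, held 3.26% to 4.37% of its mRNA counts by group. In footprints, Becn1-205 held 99.2% (Rptor) and 100% (SCe) of the counts. The counted sequence of Becn1-201 was 2123 bases for mRNA and 364 bases for organoid footprints, where that of Becn1-205 was 1393 bases. The shares of the 2 assays therefore cannot be compared directly and do not show which Becn1 transcript was translated. Becn1 overlaps Cntd1 on the opposite strand over 10366 bases, and the strand setting of the counting is not given in the sources used here, so reads of the overlap are uncertain. The other genes gave most mRNA counts to protein-coding transcripts: 90.8% of the WT counts of Sqstm1 lay on Sqstm1-202, 97.4% of those of Gabarapl1 on Gabarapl1-201, and 54.4% and 41.8% of those of Map1lc3b on Map1lc3b-201 and Map1lc3b-203. Map1lc3b and Gabarapl2 share 100% and 98.1% of their coding words of 31 bases with annotated pseudogenes (Gm6055 and Gm3724), which were not in the reference that the authors counted against. No coding word of the 10 genes was shared with another gene in that reference.

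In the RNA-seq of Rptor against WT organoids, 1 of the 10 genes passed the test, Atg5, and it fell. Of 14131 genes tested, 11% fell and 11.6% rose (edgeR, adjusted p under 0.05). No gene of the set rose, and DESeq2 called none higher. None reached an unadjusted p under 0.05 (edgeR) in that direction, where 2786 of all genes did. In the lower direction 3 genes of the set and 2853 of all genes did. The median log2 change was -0.08 for the set and -0.00 for all genes. In SCe against WT organoids, Gabarapl1 and Wipi1 rose and Atg5 fell, where 22.4% of 14925 genes rose and 19.9% fell. In Rptor against SCe organoids, Map1lc3a, Gabarapl1 and Wipi1 fell, where 21.8% of 15103 genes fell and 21% rose. There edgeR and DESeq2 called no gene of the set higher. None had an unadjusted p under 0.05 (edgeR) in that direction, where 3895 of all genes did. In the lower direction 5 genes of the set and 4035 of all genes had one. The 3 RNA-seq comparisons share their groups pairwise and are not independent.

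In footprints of Rptor against SCe organoids, Wipi1 fell and no other gene of the set passed the test. Of 10817 genes tested, 9.84% fell and 6.63% rose. Higher footprints were called for 0 of the 10 genes by edgeR and DESeq2, and 2 genes, Ulk1 and Becn1, had an unadjusted p under 0.05, against 14.9% of all genes. The change in footprints per mRNA, tested as the interaction of assay and group, passed for 0 of the 10 genes in either direction, against 1.12% higher and 1.81% lower of 10747 genes. The same 2 genes had an unadjusted p under 0.05 (8.71% of genes, higher) and were called higher by DESeq2 (5.88% of 10740 genes). No gene of the set had one in the lower direction (1241 of 10747 genes) or was called lower by DESeq2. In mouse footprints of Rptor against WT, Gabarapl2 rose, where 7.47% of 11515 genes rose and 5.97% fell. No gene of the set was lower there by edgeR, by unadjusted p under 0.05 (1521 of 11515 genes) or by DESeq2. In the higher direction 3 genes of the set and 1569 of all genes had an unadjusted p under 0.05 (edgeR). The counts of 1 to 3 of 10 genes lay near these shares of all genes. Neither they nor the counts of 0 or those at unadjusted p are a result about the set.

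**Figure D2:**
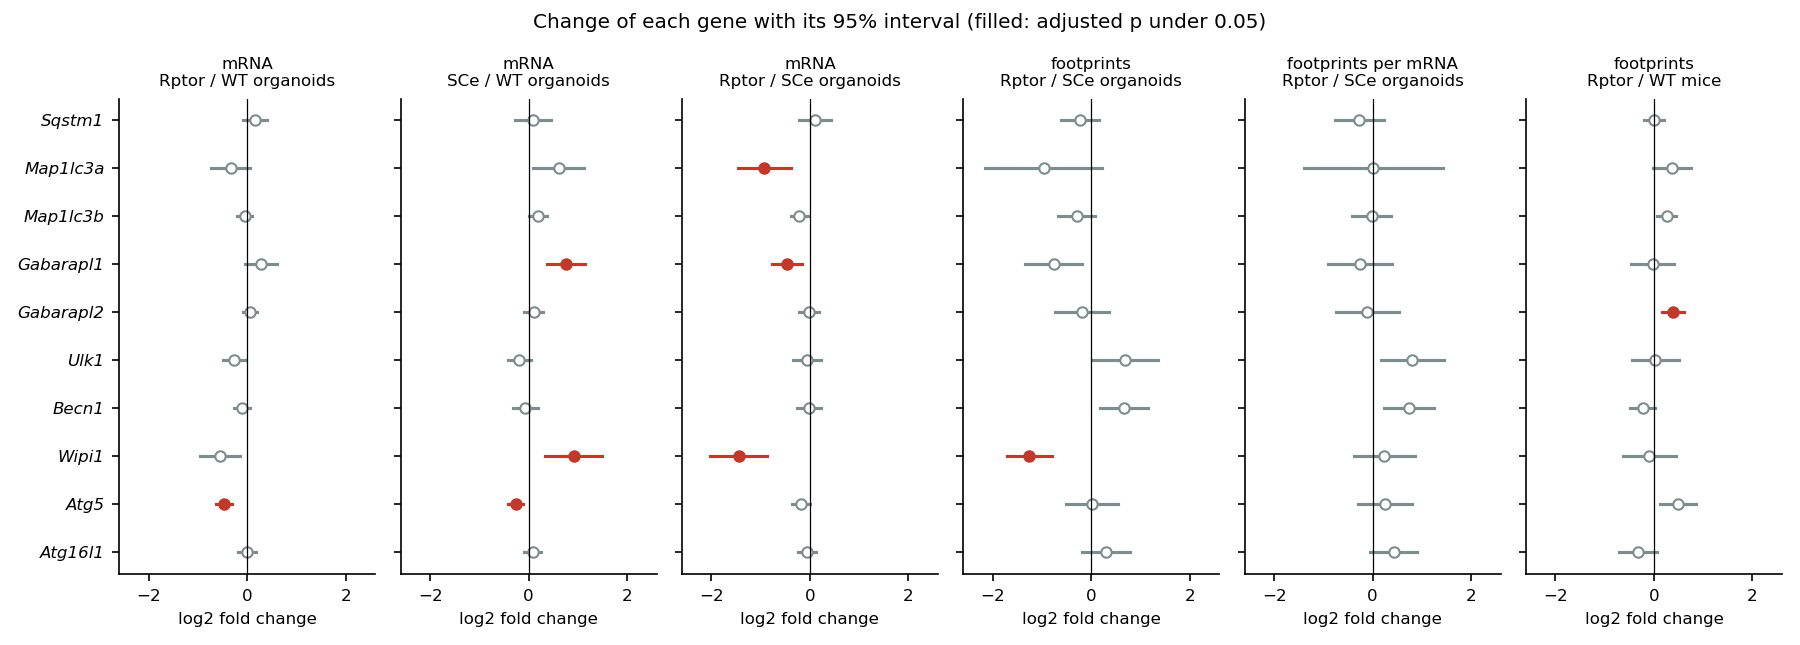
Log2 fold change of each gene (points) with its 95% interval (lines) in the 6 comparisons. Filled red points passed an adjusted p of 0.05: Atg5 in Rptor against WT mRNA, Gabarapl1, Wipi1 and Atg5 in SCe against WT mRNA, Map1lc3a, Gabarapl1 and Wipi1 in Rptor against SCe mRNA, Wipi1 in organoid footprints and Gabarapl2 in mouse footprints.

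Sqstm1 encodes p62, the receptor that links ubiquitinated cargo to ATG8 proteins and is itself degraded with it. Its mRNA was 128 and 110 CPM in the WT lines, 128 and 139 CPM in the Rptor lines and 107, 140 and 126 CPM in the SCe libraries. The 3 groups overlapped. Its log2 change was 0.16 in Rptor against WT (SE 0.0949, 95% interval -0.09 to 0.41, adjusted p = 0.269). Footprints were 149, 178 and 204 CPM in SCe and 162, 145 and 149 CPM in Rptor organoids (log2 change -0.23, SE 0.172, adjusted p = 0.403). Mouse footprints were 206, 240 and 213 CPM in WT and 198, 220 and 245 CPM in Rptor mice (log2 change 0.01, SE 0.0933, adjusted p = 0.985). No comparison of Sqstm1 passed the test, and the interval of the mouse change ran from -0.19 to 0.21.

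The ATG8 genes encode small ubiquitin-like proteins that are joined to phosphatidylethanolamine in the autophagosome membrane. Gabarapl1 mRNA was 27.4 and 34.0 CPM in WT lines, 37.8 and 36.6 in Rptor lines and 58.1, 50.1 and 45.8 in SCe libraries. The 3 groups did not overlap, with SCe highest and WT lowest. It rose in SCe against WT by 0.76 on the log2 scale (SE 0.149, 1.70-fold, adjusted p = 0.0143) and fell in Rptor against SCe (log2 change -0.46, SE 0.120, adjusted p = 0.0313). Rptor lines against WT gave 0.28 (SE 0.123, adjusted p = 0.167). The SCe call was lost without WT line 1 (adjusted p = 0.0953) or WT line 2 (0.05003). The Rptor against SCe call was lost without Rptor line 1 (0.136), Rptor line 2 (0.158) or SCe replicate 2 (0.0699), and with library totals (0.101). Gabarapl1 shares 658 bases with 1700101I11Rik on the opposite strand.

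Gabarapl1 footprints were 37.4, 25.6 and 45.5 CPM in SCe and 26.2, 21.1 and 18.2 CPM in Rptor organoids. The groups overlapped in 1 library, and the change did not pass the test (log2 change -0.76, SE 0.254, adjusted p = 0.0745). Without SCe replicate 2 it did (log2 change -0.93, adjusted p = 0.0418). In mice the footprints were 20.1, 19.1 and 14.2 CPM in WT and 20.7, 15.5 and 14.1 CPM in Rptor, with a log2 change of -0.03 (SE 0.204, adjusted p = 0.964).

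Map1lc3a encodes LC3A and had the lowest mRNA of the set, at 5.63 and 6.27 CPM in WT lines, 4.35 and 5.05 in Rptor lines and 7.19, 9.53 and 10.1 in SCe libraries. The groups did not overlap, with Rptor lowest and SCe highest. It fell in Rptor against SCe (log2 change -0.92, SE 0.214, 0.527-fold, adjusted p = 0.0223), and SCe against WT gave 0.61 (SE 0.200, adjusted p = 0.0621). The Rptor against SCe call held only without SCe replicate 1 (log2 change -1.06, adjusted p = 0.00226). It was lost without Rptor line 1 (0.137), Rptor line 2 (0.0970), SCe replicate 2 (0.0712) or SCe replicate 3 (0.0803). Without SCe replicate 1 the SCe against WT change also passed (log2 change 0.74, adjusted p = 0.00412).

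Map1lc3a footprints were 26.0, 11.9 and 5.54 CPM in SCe and 9.12, 6.02 and 6.32 CPM in Rptor organoids, so that SCe replicate 3 lay below every Rptor library. The log2 change was -0.97 with a wide interval of -2.15 to 0.22 (adjusted p = 0.238). It was -0.13 without SCe replicate 1 and -1.45 without SCe replicate 3 (adjusted p = 0.0340). Mouse footprints were 10.1, 17.3 and 14.2 CPM in WT and 16.7, 19.7 and 19.4 CPM in Rptor (log2 change 0.36, SE 0.181, adjusted p = 0.219).

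Map1lc3b encodes LC3B, the common marker of autophagosomes. Its mRNA was 73.5 and 78.9 CPM in WT lines, 73.7 and 73.1 in Rptor lines and 83.3, 89.0 and 84.7 in SCe libraries. The SCe libraries lay above the lines of both other groups. Log2 changes were 0.19 in SCe against WT (SE 0.0697, adjusted p = 0.0817) and -0.22 in Rptor against SCe (SE 0.0682, adjusted p = 0.0503). Without SCe replicate 1 these were 0.21 (adjusted p = 0.0311) and -0.24 (adjusted p = 0.0170). Rptor lines against WT gave -0.05 (SE 0.0595, 95% interval -0.21 to 0.10). Footprints were 143, 108 and 112 CPM in SCe and 98.5, 97.2 and 99.4 CPM in Rptor organoids (log2 change -0.30, SE 0.167, adjusted p = 0.253). In mice they were 85.5, 73.2 and 74.7 CPM in WT and 87.6, 92.7 and 92.4 CPM in Rptor, without overlap (log2 change 0.26, SE 0.0936, adjusted p = 0.0851). Without Rptor mouse 1 that change was 0.29 (adjusted p = 0.0482).

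Gabarapl2 encodes GATE-16, an ATG8 protein also studied in Golgi transport. Its mRNA was nearly level, at 57.2 and 58.4 CPM in WT lines, 59.7 and 60.4 in Rptor lines and 65.003, 58.1 and 60.3 in SCe libraries. The log2 change was 0.05 in Rptor against WT (SE 0.0523, 95% interval -0.08 to 0.19, adjusted p = 0.488). In organoid footprints SCe replicate 1 stood at 130 CPM, with the other SCe libraries at 74.3 and 72.7 and the Rptor libraries at 84.6, 74.8 and 84.2 (log2 change -0.19, SE 0.241, adjusted p = 0.636). Without SCe replicate 1 the change was 0.15.

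Gabarapl2 was the gene of the set that passed the test in mice. Its footprints were 65.4, 80.4 and 91.1 CPM in WT and 102, 109 and 112 CPM in Rptor mice, so that each Rptor mouse lay above each WT mouse. The log2 change was 0.39 (SE 0.105, 1.31-fold, adjusted p = 0.0233). The call was lost without WT mouse 1 (log2 change 0.32, adjusted p = 0.0578), WT mouse 2 (0.0918), Rptor mouse 2 (0.0896) or Rptor mouse 3 (0.0880), and with library totals in place of TMM scaling (log2 change 0.31, adjusted p = 0.0631). Cell type markers moved with the mouse groups: goblet markers (6 of 6 detected) summed to 21641 to 22043 CPM in WT and 25302 to 28284 CPM in Rptor mice, and Paneth markers (6 of 6) to 10132 to 10911 and 5838 to 9452 CPM. In the same order, stem cell markers summed to 716 to 741 and 454 to 711 CPM and enterocyte markers to 29503 to 29996 and 31167 to 32540 CPM. Tuft markers summed to 52.7 to 55.8 and 61.6 to 64.0 CPM. The enteroendocrine sums overlapped between the mouse groups. The part of these marker differences in the Gabarapl2 change was not tested.

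**Figure D3:**
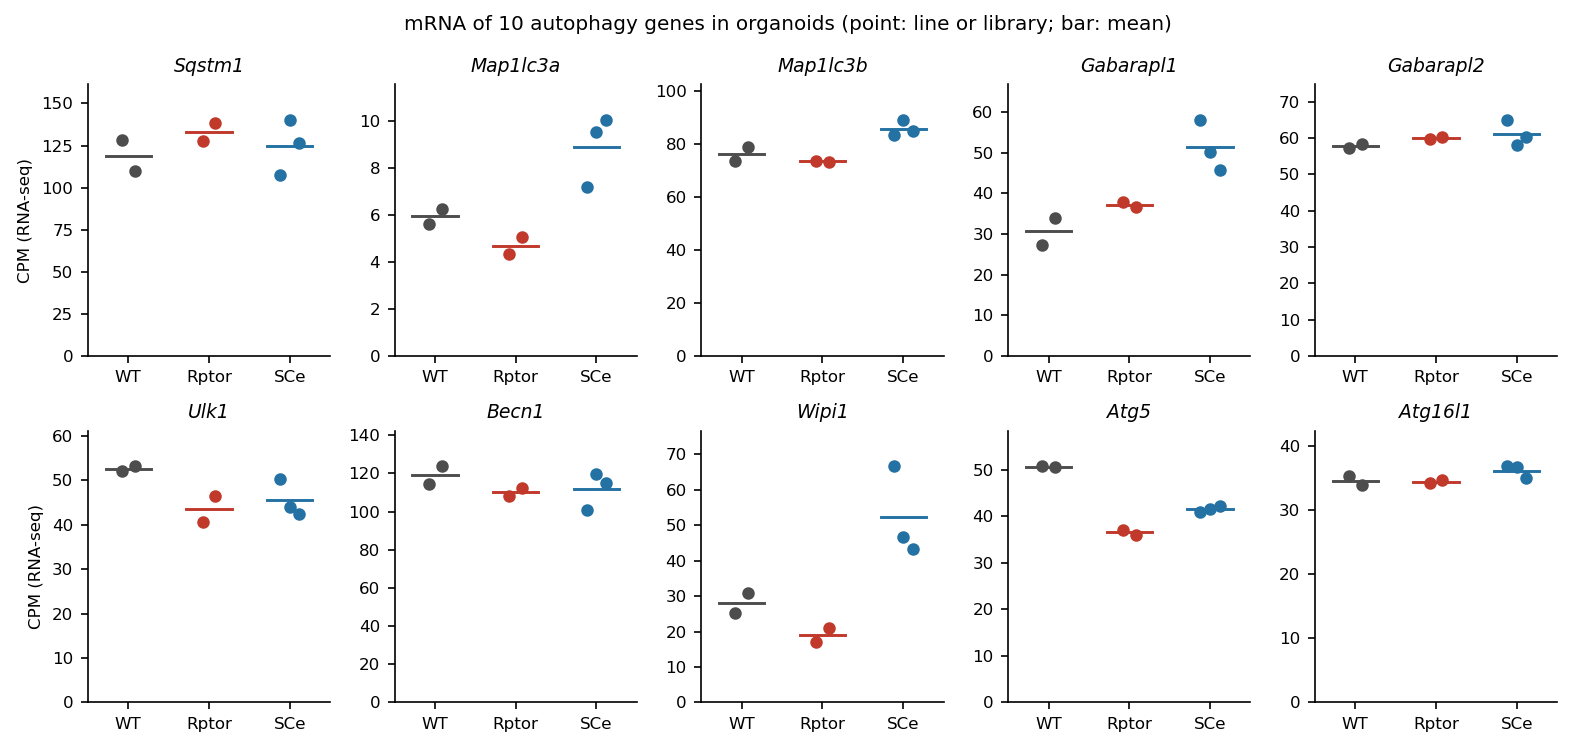
RNA-seq values of the 10 genes in CPM of the scaled library size (y axis, from 0), by organoid group. Points are lines (WT and Rptor, 2 technical libraries summed) or libraries (SCe) and bars are means. Atg5 was 50.7 and 50.5 CPM in WT lines, above the other groups, and Wipi1 and Gabarapl1 were highest in SCe.

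Ulk1 encodes the kinase that starts autophagosome formation and a direct substrate of mTOR complex 1. Its mRNA was 52.0 and 53.1 CPM in WT lines, 40.7 and 46.4 in Rptor lines and 50.2, 43.9 and 42.5 in SCe libraries. Both other groups lay below WT. Log2 changes were -0.27 in Rptor against WT (SE 0.0849, adjusted p = 0.0817) and -0.19 in SCe against WT (SE 0.0927, adjusted p = 0.162). The former passed without Rptor line 2 (log2 change -0.35, adjusted p = 0.0461) and the latter without SCe replicate 1 (-0.27, adjusted p = 0.0106).

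Ulk1 footprints were 7.04, 12.8 and 9.0007 CPM in SCe and 16.4, 12.4 and 16.2 CPM in Rptor organoids, from 13, 15 and 39 counts in SCe. The groups overlapped in 1 library. Rptor against SCe gave a log2 change of 0.68 in footprints (SE 0.294, adjusted p = 0.149) and 0.81 in footprints per mRNA (SE 0.287, adjusted p = 0.148). Both turned negative with an offset for the deposited effective length (-1.77 and -1.53), since in SCe replicate 3 29.3% of the Ulk1 counts lay on Ulk1-202, whose counted sequence of 301 bases has an effective length of 53.2. In mice Ulk1 footprints were 15.1, 9.54 and 20.2 CPM in WT and 17.4, 17.0 and 15.6 CPM in Rptor (log2 change 0.03, SE 0.221).

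Becn1 mRNA was 114 and 124 CPM in WT lines, 108 and 112 in Rptor lines and 101, 120 and 115 in SCe libraries, and no RNA-seq comparison passed the test (log2 changes of -0.11, -0.07 and -0.02). Its footprints were 20.6, 21.3 and 23.1 CPM in SCe and 42.3, 30.3 and 30.9 CPM in Rptor organoids. Each Rptor library lay above each SCe library. Rptor against SCe gave 0.66 on the log2 scale in footprints (SE 0.216, adjusted p = 0.0694) and 0.73 in footprints per mRNA (SE 0.231, adjusted p = 0.111). With DESeq2 the change in footprints per mRNA was 0.75 (adjusted p = 0.0364). In mice the direction of the point estimate was the other one, at 66.7, 59.1 and 51.8 CPM in WT and 44.6, 47.6 and 52.1 CPM in Rptor (log2 change -0.23, SE 0.120, adjusted p = 0.241).

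Wipi1 encodes a WD-repeat protein that binds phosphatidylinositol 3-phosphate on forming autophagosomes, and it had the largest changes of the set in the 3 RNA-seq comparisons and in organoid footprints. Its mRNA was 25.2 and 30.9 CPM in WT lines, 17.2 and 21.0 in Rptor lines and 66.6, 46.7 and 43.2 in SCe libraries. The groups did not overlap, with SCe replicate 1, the library that stood apart, highest. Wipi1 rose in SCe against WT by 0.91 on the log2 scale (SE 0.224, 1.89-fold, adjusted p = 0.0273) and fell in Rptor against SCe (log2 change -1.45, SE 0.230, 0.367-fold, adjusted p = 0.00749). Without SCe replicate 1 both still passed (0.70, adjusted p = 0.00359; -1.24, adjusted p = 0.000674). Rptor lines against WT gave -0.55 (SE 0.153, adjusted p = 0.0622), which passed with DESeq2 (adjusted p = 0.0131).

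The Wipi1 call in SCe against WT was lost without WT line 1 (adjusted p = 0.166), WT line 2 (0.0970) or SCe replicate 2 (0.0536) and with library totals (0.0541). The call in Rptor against SCe was lost without Rptor line 1 (adjusted p = 0.0668). Wipi1 footprints were 34.7, 26.5 and 28.4 CPM in SCe and 12.6, 11.9 and 13.0 CPM in Rptor organoids, without overlap. The sums of the epithelial marker lists given above moved the other way between these groups. Lgr5, in the stem cell list, moved the same way as Wipi1, at 377, 448 and 638 CPM in SCe and 205, 206 and 212 CPM in Rptor organoids. The part of these cell type differences was not tested. Wipi1 footprints fell in Rptor against SCe (log2 change -1.26, SE 0.202, 0.419-fold, adjusted p = 0.00492) and still passed when any 1 of the 6 libraries was left out (adjusted p from 0.00539 to 0.0376). With the effective length offset the change was -1.13 (adjusted p = 0.0603). Footprints per mRNA of Wipi1 gave 0.24 (SE 0.280, 95% interval -0.38 to 0.86, adjusted p = 0.687). In mice Wipi1 was at 6.29, 8.63 and 8.36 CPM in WT and 8.20, 9.40 and 6.29 CPM in Rptor, from as few as 5 counts. That change did not pass the test (log2 change -0.09, SE 0.253, 95% interval -0.63 to 0.44, adjusted p = 0.864).

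Atg5 is joined to ATG12, and the conjugate with ATG16L1 carries ATG8 proteins to the membrane. Atg5 mRNA was 50.7 and 50.5 CPM in WT lines, 37.1 and 36.0 in Rptor lines and 40.9, 41.6 and 42.1 in SCe libraries. The groups did not overlap, with WT highest and Rptor lowest. It fell in Rptor against WT (log2 change -0.47, SE 0.0625, 0.722-fold, adjusted p = 0.0165) and in SCe against WT (-0.26, SE 0.0608, 0.833-fold, adjusted p = 0.0233). These share the WT lines. Rptor against SCe gave -0.18 (SE 0.0691, adjusted p = 0.0857), which passed without SCe replicate 1 (-0.20, adjusted p = 0.0444).

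The Atg5 call in Rptor against WT was lost without WT line 1 (adjusted p = 0.0799) or WT line 2 (0.0561), at log2 changes of -0.47 in both. The call in SCe against WT held only without SCe replicate 1 (adjusted p = 0.0104) and was lost without WT line 1 (0.129), WT line 2 (0.127), SCe replicate 2 (0.0679) or SCe replicate 3 (0.0715) and with library totals (0.0995). Atg5 footprints were 36.8, 21.3 and 28.2 CPM in SCe and 31.3, 26.2 and 30.8 CPM in Rptor organoids, with overlap (log2 change 0.02, SE 0.231, 95% interval -0.51 to 0.54). In mice they were 15.1, 30.0 and 25.3 CPM in WT and 40.0, 34.2 and 33.2 CPM in Rptor, where each Rptor mouse lay above each WT mouse. That change did not pass the test (log2 change 0.49, SE 0.168, adjusted p = 0.0674).

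Atg16l1 varied least of the conjugation genes in mRNA, at 35.3 and 34.0 CPM in WT lines, 34.2 and 34.7 in Rptor lines and 36.8, 36.7 and 34.9 in SCe libraries. The log2 change was -0.01 in Rptor against WT (SE 0.0709, 95% interval -0.19 to 0.18). Footprints were 17.9, 22.2 and 17.3 CPM in SCe and 20.4, 26.3 and 22.7 CPM in Rptor organoids, and the groups overlapped (log2 change 0.30, SE 0.212, adjusted p = 0.368). Mouse footprints were 13.8, 21.4 and 18.7 CPM in WT and 13.1, 13.6 and 17.0 CPM in Rptor (log2 change -0.33, SE 0.183, adjusted p = 0.270).

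**Figure D4:**
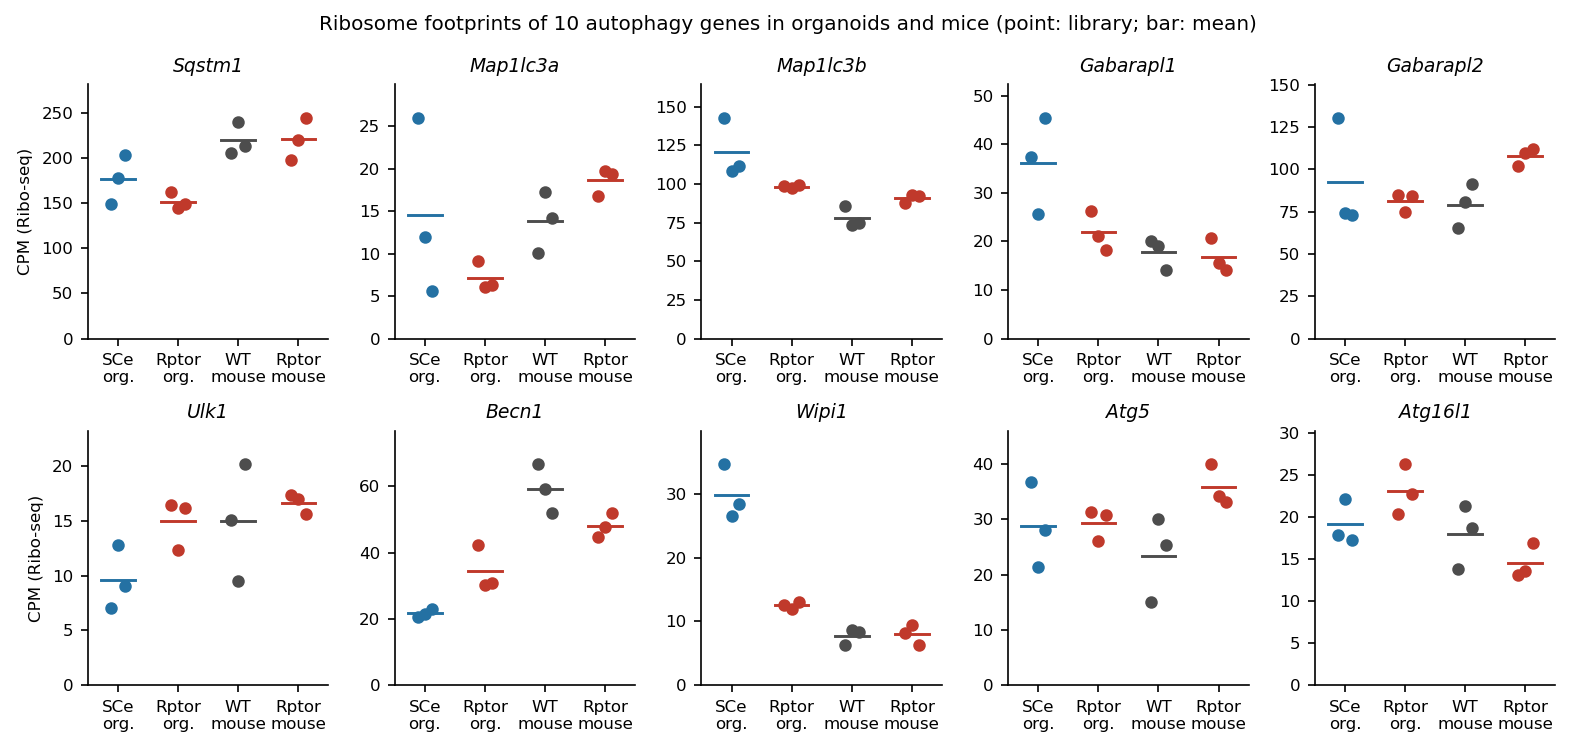
Ribo-seq values of the 10 genes in CPM of the scaled library size (y axis, from 0), by group of organoid (org.) or mouse libraries. Points are libraries and bars are means. Wipi1 was 26.5 to 34.7 CPM in SCe and 11.9 to 13.0 CPM in Rptor organoids, and Gabarapl2 was 65.4 to 91.1 CPM in WT and 102 to 112 CPM in Rptor mice. Organoid and mouse libraries were counted against different references and are not compared.

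Footprints assigned to separate 5′ entries overlapped between SCe and Rptor organoids for all 10 genes. Sqstm1 had none in either group. Per 100 coding counts, Becn1 had 21.0 to 72.0, Atg5 20.6 to 64.0, Gabarapl1 11.4 to 64.5 and Ulk1 20.0 to 53.8 over the 6 libraries, whereas 5′ entries took 2.97% to 6.98% of all counts of a library. These rest on 3 to 76 counts per gene and library. Becn1, Gabarapl1 and Atg5 had the most in SCe, with means of 9.804, 12.1 and 11.1 CPM against 9.63, 4.78 and 7.87 CPM in Rptor organoids. Ulk1 had 3.04 CPM in SCe and 4.39 CPM in Rptor organoids.

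A wider group of 70 autophagy genes, arranged in 7 lists by role, was read beside the 10. In Rptor against WT mRNA 7 rose and 7 fell, against 11.6% and 11% of all genes, with a median log2 change of 0.02. In SCe against WT 7 rose and 19 fell, against 22.4% and 19.9% of all genes (median -0.16, against 0.02). Rptor against SCe gave 27 that rose and 8 that fell, against 21% and 21.8% of all genes (median 0.20, against -0.01). In organoid footprints 4 rose and 4 fell of 67 tested, against 6.63% and 9.84% of all genes. In footprints per mRNA 1 rose and 1 fell of 67, against 1.12% and 1.81%. In mice 9 rose and 1 fell of 67, against 7.47% and 5.97% (median 0.10, against -0.02).

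Of the 4 other ULK complex genes, 3 fell in SCe against WT organoids, where 19.9% of all genes fell. Atg13, which bridges ULK1 and FIP200, was at 39.0 and 39.1 CPM in WT lines and 18.8 to 22.3 CPM in SCe libraries (log2 change -0.89, SE 0.0974, adjusted p = 0.00331). Rb1cc1, which encodes FIP200, fell by 0.82 (adjusted p = 0.00329) and Atg101 fell by 0.69 (adjusted p = 0.00695) on the same scale, while Ulk2, the paralog of Ulk1, gave -0.59 (adjusted p = 0.0576). In Rptor against SCe, where 21% of all genes rose, all 4 rose, by 0.48 (Atg101) to 0.88 (Ulk2, adjusted p = 0.0140). Both comparisons rest on the same SCe libraries. Ulk1, the kinase of the complex, passed in neither (-0.19, adjusted p = 0.162, and -0.06, adjusted p = 0.693). The Ulk2 call was lost without Rptor line 1 (0.0956), Rptor line 2 or SCe replicate 3. In Rptor against WT none of the 4 passed by edgeR or DESeq2, and 1 had an unadjusted p under 0.05, and lower. Atg13 footprints rose in Rptor against SCe organoids (log2 change 1.65, SE 0.312, adjusted p = 0.00933, 0.0529 without Rptor replicate 3).

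Among cargo receptors, Bnip3, a mitophagy receptor induced by hypoxia, fell in Rptor organoids. Its mRNA was 59.6 and 96.6 CPM in WT lines, 23.3 and 27.4 in Rptor lines and 134 to 176 in SCe libraries. The groups did not overlap. The log2 change was -1.62 in Rptor against WT (SE 0.250, adjusted p = 0.0199), lost without Rptor line 1 (0.0596) or line 2 (0.0648), and -2.56 in Rptor against SCe (SE 0.166, adjusted p = 0.00107). Bnip3 footprints fell as well (log2 change -1.26, SE 0.232, adjusted p = 0.00815), and both of these passed when any 1 line or library was left out. Ncoa4, the ferritin receptor, fell in SCe against WT (log2 change -1.62, SE 0.140, adjusted p = 0.00203).

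The largest mRNA changes of the wider group in each RNA-seq comparison were those of regulators at low levels. Dapk1, a kinase that phosphorylates Beclin 1, was at 0.948 and 1.08 CPM in WT lines and 13.3 and 17.9 CPM in Rptor lines (log2 change 3.94, SE 0.213, adjusted p = 0.00565), and rose alike in Rptor against SCe (3.95, adjusted p = 0.00523). Mitf, of the TFEB family, was at 0.0944 and 0.161 CPM in WT lines and 1.71 to 2.73 CPM in SCe libraries (log2 change 4.22, SE 0.448, adjusted p = 0.00316). Uvrag, a Beclin 1 partner, rose in SCe against WT (0.81, adjusted p = 0.00193), and the lipid scramblase Atg9a and the protease Atg4d fell (-0.88, adjusted p = 0.00201, and -0.84, adjusted p = 0.00598, the latter 0.0539 without WT line 1). In Rptor against SCe, Wdr45, a relative of Wipi1 that also binds phosphatidylinositol 3-phosphate, rose (log2 change 1.03, SE 0.146, adjusted p = 0.00551).

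In mice, Gabarap footprints were 227 to 240 CPM in WT and 272 to 298 CPM in Rptor, without overlap, and rose by 0.27 on the log2 scale (SE 0.0757, adjusted p = 0.0298). The call was lost without WT mouse 1, 2 or 3 or Rptor mouse 2 (adjusted p up to 0.142) and with library totals (log2 change 0.19). Gabarap gave 0.07 (adjusted p = 0.462), -0.04 (0.783) and 0.14 (0.344) in the 3 RNA-seq comparisons in the order above. Bnip3l, the mitophagy receptor NIX, was at 28.9 to 40.2 CPM in WT and 53.2 to 57.7 CPM in Rptor mice (log2 change 0.54, SE 0.123, adjusted p = 0.00818) and passed when any 1 mouse was left out. Trp53inp2, Plekhm1 and Tmem41b rose by 0.67, 0.55 and 0.43 (adjusted p = 0.0250, 0.0112 and 0.0104), and Atg16l2 fell by 1.57 (adjusted p = 0.0394). Trp53inp2 lost the call without WT mouse 2 or 3 or Rptor mouse 2 or 3 (adjusted p up to 0.140), Plekhm1 without WT mouse 3 (0.115) and Tmem41b without WT mouse 3 or Rptor mouse 2 (up to 0.0699). Atg16l2 lost it without WT mouse 1 or 2 or Rptor mouse 2 or 3 (up to 0.159).

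**Figure D5:**
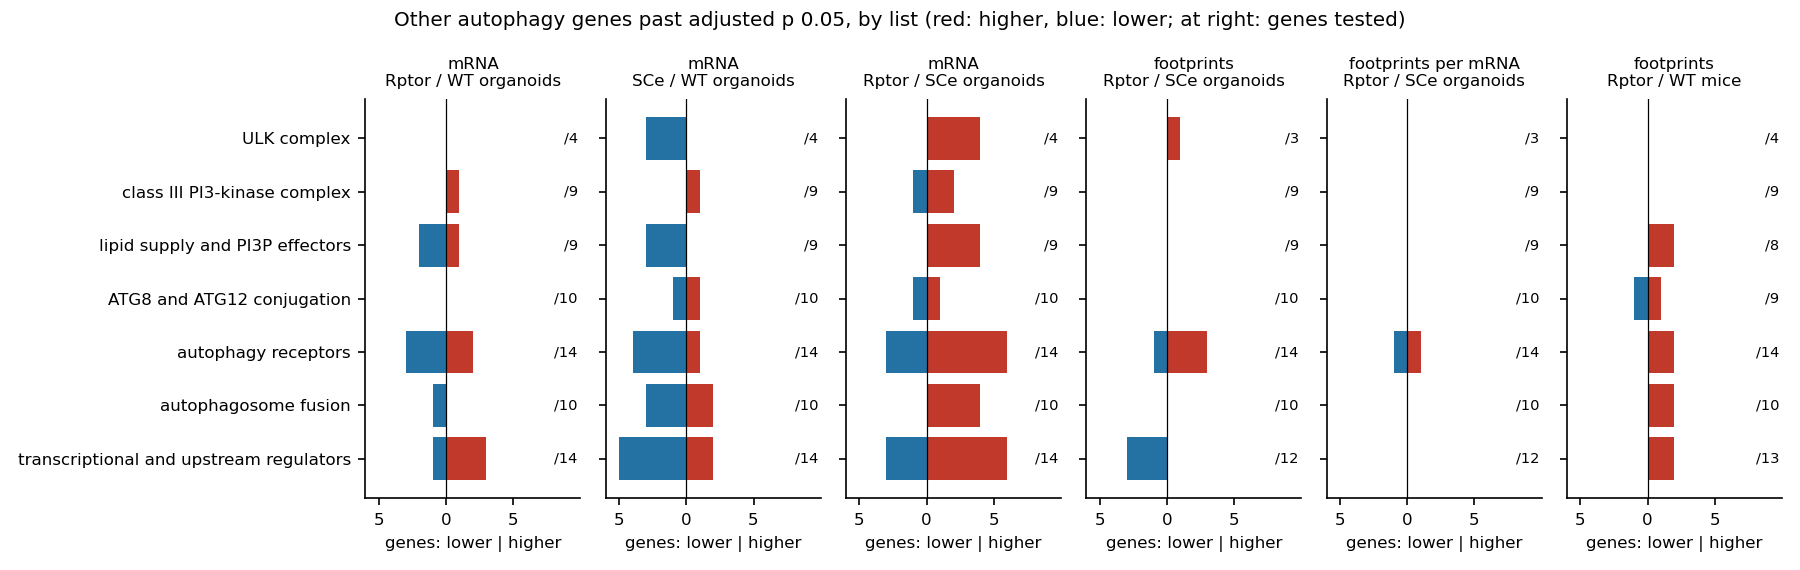
Number of genes past an adjusted p of 0.05 in 7 lists of other autophagy genes, higher to the right (red) and lower to the left (blue), in the 6 comparisons, with the number tested at the right of each bar. In the ULK complex 3 of 4 genes were lower in SCe against WT mRNA and 4 of 4 higher in Rptor against SCe mRNA, where 19.9% and 21% of all genes did so. Both comparisons share the SCe libraries, and Ulk1, a gene of the set, passed in neither.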

How the data were processed

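The 23 libraries were 11 RNA-seq, 6 organoid Ribo-seq and 6 mouse Ribo-seq libraries. The deposited values were Salmon 1.1.0 estimated counts per transcript against GENCODE vM21 protein-coding sequences, with cutadapt 1.18 and mm10 also named in the submitters' processing notes. TPM and the effective length were deposited by the authors beside these counts. UTRs had been removed for the organoid footprints, with separate 5′ entries, but 5′ sequence was kept for the mouse footprints. The strand setting is not given in the sources used here. A deposited table of the authors' own comparison of translation efficiency (fold changes and p-values) was not used.

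Counts were summed per gene without 5′ entries, technical libraries were summed per organoid line, and sums were rounded to whole numbers. Groups came from the labels. Each comparison was fitted on its own groups with edgeR 4.0.16 in R 4.3.3 (filterByExpr, TMM, quasi-likelihood F test, Benjamini-Hochberg over all genes tested, threshold 0.05), and footprints per mRNA as the interaction of assay and group. The scripts were tested on simulated data. Values are CPM of the scaled library size. Levels between genes use counts per kilobase of deposited length, scaled to the same total in each library. That choice was made after seeing the data and stands beside the authors' TPM. Intervals are 95% intervals of the fit. The labels do not say whether SCe libraries or Ribo-seq organoid replicates came from separate animals, so p-values measure the spread between these samples.

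Alternatives were DESeq2 1.42.0, no count filter, library totals, an offset for effective length, each line, library or mouse left out, the replicate number as a block, technical libraries kept separate and 5′ entries added. The 10 genes were all named, and of 7 wider lists the called gene with the largest change per list and comparison, with Gabarap and Rptor. Members and lists were chosen with earlier results of these data known. Rb1cc1, Atg101 and Ulk2 were named to complete a list of 4 after their values were seen. No library was counted as deposited more than once: replicates differed by more than counting noise (lowest chi-square per degree of freedom 1.52).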

Additional observations from a re-analysis of the deposited data

Results flagged for a closer look

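Atg5 was flagged because its groups did not overlap, in opposite directions, in the 2 comparisons of Rptor with WT. Its mRNA was lower in each Rptor organoid line than in each WT line (log2 change -0.47), and its footprints were higher in each Rptor mouse than in each WT mouse (log2 change 0.49). The mouse change did not pass the test (adjusted p = 0.0674, edgeR, and up to 0.226 with 1 mouse left out), and WT mouse 1 held 12 Atg5 counts. The difference between these was not tested. The assay, the tissue, the Cre driver and the reference sequences differ between the 2 comparisons and cannot be told apart from the material. Groups of 2 or 3 were too small to examine single values for outliers. In Rptor against WT mRNA, with 2 lines per group, 2 genes of the set lay higher and 5 lower without overlap. In mice 3 lay higher and 0 lower. The share of all genes without overlap is not given here, so neither the flag nor these counts are a result about Atg5 or the set.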

How the results depend on the processing

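Of 60 values (10 genes in 6 comparisons), 9 passed the threshold. None of these 9 reversed under any alternative. 3 passed under every alternative that kept all samples, and 1, Wipi1 in organoid footprints, passed under every leaving out. Of all 60 values, 10 reversed under an alternative that kept all samples and 15 when 1 line, library or mouse was left out. Where leaving out 1 line left a group with 1 line, that line was assumed to vary like the others. Depth limits Ulk1, Map1lc3a and Wipi1 footprints, with 5 to 48 counts in some libraries. It also limits others of the set: Atg16l1, Atg5 and Gabarapl1 had 11, 12 and 16 counts in WT mouse 1, and Becn1 had 25 in SCe replicate 2.

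Counts of genes of the set past the threshold changed as follows. In Rptor against WT mRNA, 2 were lower with DESeq2, 3 with the replicate block, and 4 lower and 2 higher with technical libraries kept separate. In SCe against WT mRNA, 4 were higher with DESeq2 and with technical libraries kept separate, and 1 higher and 0 lower with library totals and with the replicate block. In Rptor against SCe mRNA, 5 were lower with DESeq2 and with technical libraries kept separate. In organoid footprints, 0 were lower with the effective length offset and 2 with 5′ entries added. In footprints per mRNA, 2 were higher with DESeq2 and with technical libraries kept separate. In mice, 2 were higher without the count filter and 0 with library totals or the effective length offset. For several of these settings the share of all genes is not given here, and these counts are no result about the set.

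Counts over all genes changed too. The replicate block gave 2392 lower genes in Rptor against WT mRNA, 1753 higher and 1401 lower in SCe against WT, 1673 and 1740 in Rptor against SCe, and 2 and 2 in footprints per mRNA. Technical libraries kept separate gave 3566 and 3642 in Rptor against WT, and 542 and 770 in footprints per mRNA. The effective length offset gave 298 and 385 in organoid footprints, 65 and 55 in footprints per mRNA and 398 and 287 in mice. DESeq2 gave 632 and 701 in footprints per mRNA and 415 lower in mice. Library totals gave 67 higher in footprints per mRNA and 1062 lower in mice. The cause of these shifts was not tested.

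Log2 changes that reversed were near 0, apart from Ulk1 with the effective length offset in footprints (-1.77) and footprints per mRNA (-1.53) and Retreg1 there (0.44, against -1.59, adjusted p = 0.0317). The others were, with library totals, Atg16l1 in Rptor against WT (0.039), Becn1 in Rptor against SCe (0.0038), Map1lc3a in footprints per mRNA (-0.070), and Sqstm1 (-0.074) and Ulk1 (-0.051) in mice. With the effective length offset they were Map1lc3b in SCe against WT (-0.011) and Map1lc3a in footprints per mRNA (-0.016). Map1lc3a also gave -0.013 with DESeq2 and -0.012 without the count filter, Becn1 gave 0.0095 with the replicate block, and with 5′ entries added Atg5 footprints gave -0.072 and Map1lc3b footprints per mRNA 0.0051.

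When 1 line, library or mouse was left out, genes higher and lower ranged from 540 to 1186 and 399 to 940 in Rptor against WT mRNA, 1154 to 4744 and 873 to 4786 in SCe against WT, 1216 to 4582 and 1293 to 4519 in Rptor against SCe, 235 to 1170 and 434 to 1512 in organoid footprints, 12 to 401 and 13 to 550 in footprints per mRNA, and 517 to 1095 and 380 to 859 in mice. Genes of the set ranged from 0 to 2 lower in Rptor against WT, 0 to 4 higher and 0 to 2 lower in SCe against WT, 0 to 5 lower in Rptor against SCe, 1 to 2 lower in organoid footprints and 0 to 2 higher in mice. Single genes that reversed had log2 ranges of -0.034 to 0.017 (Atg16l1, Rptor against WT), -0.031 to 0.18 (Sqstm1) and -0.10 to 0.029 (Gabarap) in SCe against WT, and -0.0026 to 0.18 (Sqstm1), -0.067 to 0.018 (Gabarapl2), -0.15 to 0.036 (Ulk1) and -0.090 to 0.027 (Becn1) in Rptor against SCe. They were -0.34 to 0.15 (Gabarapl2), -0.12 to 0.20 (Atg5) and -0.42 to 0.0084 (Gabarap) in organoid footprints, and -0.46 to 0.83 (Map1lc3a), -0.086 to 0.11 (Map1lc3b) and -0.27 to 0.22 (Gabarapl2) in footprints per mRNA. In mice they were -0.077 to 0.084 (Sqstm1), -0.25 to 0.12 (Gabarapl1), -0.21 to 0.56 (Ulk1) and -0.21 to 0.11 (Wipi1).

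The replicate numbers were not shown to pair the samples. Same-numbered samples correlated in their deviations from the group means at 0.303 in Rptor against WT mRNA, 0.165 and 0.144 in SCe against WT, 0.250 and 0.197 in Rptor against SCe, -0.0440 to 0.0289 in organoid footprints and -0.00561 to 0.0340 in mice. With the replicate number as a block, Wipi1 (adjusted p = 0.00585) and Ulk1 (0.0345) passed in Rptor against WT mRNA. The block ended the calls of Wipi1 (0.0553) and Atg5 (0.127) in SCe against WT and of Map1lc3a in Rptor against SCe (0.0837). DESeq2 added Wipi1 in Rptor against WT, Map1lc3a and Map1lc3b in SCe against WT, Map1lc3b and Atg5 in Rptor against SCe, and Ulk1 and Becn1 in footprints per mRNA.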

Other observations

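Receptors and regulators outside the set gave a few further values. Retreg1, a receptor for the endoplasmic reticulum, had lower footprints per mRNA in Rptor than in SCe organoids (log2 change -1.59, SE 0.323, adjusted p = 0.0317, edgeR), with mRNA at 48.1 and 56.4 CPM in Rptor lines and 31.8 to 34.0 CPM in SCe libraries. The call was lost in 7 of 11 cases when 1 line or library was left out (adjusted p up to 0.159), and the direction turned with the effective length offset, as given above. The lines and libraries behind the lost calls were both Rptor lines, SCe replicates 2 and 3 of the RNA-seq and the 3 Rptor replicates of the Ribo-seq. Trp53inp2 footprints were 8.54 to 15.2 CPM in SCe and 3.40 to 4.91 CPM in Rptor organoids (log2 change -1.43, SE 0.359, adjusted p = 0.0279), a call that held only without SCe replicate 3 among the 6 leavings out (adjusted p up to 0.129).

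In Rptor against WT organoid mRNA, Atg9b, a lipid scramblase, was at 41.6 and 76.9 CPM in WT and 158 and 215 CPM in Rptor lines (log2 change 1.66, SE 0.329, adjusted p = 0.0308, up to 0.0898 without Rptor line 1 and also lost without Rptor line 2). The fusion factor Ykt6 fell by 0.45 on the log2 scale (adjusted p = 0.0132, up to 0.0572 without WT line 1 and also lost without WT line 2), and Pik3r4 rose by 0.33 (adjusted p = 0.0412, lost without any 1 of the 4 lines, up to 0.177). In SCe against WT, Plekhm1 fell by 0.79 (adjusted p = 0.0170, lost without either WT line or SCe replicate 2 or 3, up to 0.0999). In Rptor against SCe, Rubcn, Atg4d and Epg5 rose by 0.87, 0.72 and 0.80 (adjusted p = 0.0469, 0.00837 and 0.0213). All 3 calls were lost without either Rptor line (adjusted p up to 0.182, 0.0625 and 0.114), and those of Rubcn and Epg5 also without SCe replicate 2 or 3.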
